A study of Caenorhabditis elegans with 2 samples.

Results

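Clustered summits of RNA polymerase II were the summits of optimal AMA-1 peaks that lay within 1000 bp of at least 1 other optimal summit on the same chromosome. They numbered 1207 of 3052 optimal summits, or 39.5% (95% exact Clopper-Pearson interval 37.8 to 41.3%), and chaining each summit to its neighbours gave 431 clusters. Members were chosen by the called summit positions, so their spacing, number and grouping are described below and were not tested. The remaining 1845 summits were single. The data came from ChIP-seq with an antibody to AMA-1, the largest subunit of the polymerase, in whole L3 larvae of the wild-type C. elegans strain N2. Their sex was labelled as males and females pooled. There were 2 biological replicates of 1 group, with DNA fragments of 150 to 350 bp, and no second condition to compare. All positions are in build ce11, which is WBcel235. In whole animals, polymerase in more cells and more polymerase per cell cannot be told apart.

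RNA polymerase II starts transcription at promoters, often pauses soon after the start, copies the gene body and slows past the site where the transcript is cleaved and given its poly(A) tail. Genes in heavy use can therefore carry polymerase along their whole length and beyond the 3′ end. Many worm transcripts receive their first bases by trans-splicing, so an annotated 5′ end need not be the place where the polymerase began.

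A pair of genes shows what a chain of summits looks like in sequence. The gene icl-1 encodes the glyoxylate cycle enzyme that lets worms turn fat into sugar, and it carried 9 summits of 1 cluster, while mak-1, which encodes a MAPK-activated protein kinase, carried 7. For each gene a summit near its start, one in the middle and the last one are shown, 101 bases on the gene's own strand, from the RefSeq copy of WBcel235, with the 11 bases around the summit in capitals. The middle summits lie in protein-coding sequence, and the last ones lie past the annotated end of the gene.
icl-1 summit 2 of 9, coding exon, chrV:727542-727642, minus strand: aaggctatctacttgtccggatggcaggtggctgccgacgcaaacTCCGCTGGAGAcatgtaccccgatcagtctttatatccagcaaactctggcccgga
icl-1 summit 6 of 9, coding exon, chrV:725739-725839, minus strand: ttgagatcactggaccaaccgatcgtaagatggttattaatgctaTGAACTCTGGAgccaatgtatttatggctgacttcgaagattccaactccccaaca
icl-1 summit 9 of 9, downstream, chrV:724135-724235, minus strand: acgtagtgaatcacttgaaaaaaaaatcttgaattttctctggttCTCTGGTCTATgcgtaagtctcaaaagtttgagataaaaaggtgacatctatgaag
mak-1 summit 1 of 7, upstream, chrII:8743657-8743757, plus strand: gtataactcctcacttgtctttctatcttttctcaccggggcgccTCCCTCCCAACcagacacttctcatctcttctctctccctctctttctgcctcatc
mak-1 summit 4 of 7, coding exon, chrII:8745408-8745508, plus strand: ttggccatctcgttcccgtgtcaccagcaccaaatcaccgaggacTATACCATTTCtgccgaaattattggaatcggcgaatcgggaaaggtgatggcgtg
mak-1 summit 7 of 7, downstream, chrII:8747389-8747489, plus strand: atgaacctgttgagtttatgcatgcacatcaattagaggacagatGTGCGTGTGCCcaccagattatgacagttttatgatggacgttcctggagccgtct
The GC content of these icl-1 windows was 55.4%, 42.6% and 33.7% from the start to past the end, and that of the mak-1 windows was 50.5%, 51.5% and 45.5%. GC content thus fell over the icl-1 windows shown, which are not all of its summits, while the mak-1 windows differed less.

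Short motifs were searched at every optimal summit, on both strands. The first was the E-box CACGTG, a site of basic helix-loop-helix factors such as the Mondo-like and Mad-like proteins that mml-1 and mdl-1 encode. The second was TTCNNGAA, the paired core of the heat shock element. Both read the same on either strand, and they cannot overlap each other. The third was AATAAA, the poly(A) signal of many transcripts. Windows of 161 bases that hold 1 match to either of the first motifs are shown for several-summit genes, with the match in capitals; xbp-1 encodes a transcription factor of the unfolded protein response and hsp-90 the cytosolic Hsp90 chaperone.
mml-1 summit 1 of 4, upstream, chrIII:7374954-7375114, minus strand: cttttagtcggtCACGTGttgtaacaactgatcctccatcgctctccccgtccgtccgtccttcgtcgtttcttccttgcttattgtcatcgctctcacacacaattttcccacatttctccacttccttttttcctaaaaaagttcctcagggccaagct
mdl-1 summit 2 of 4, intron, chrX:6742944-6743104, plus strand: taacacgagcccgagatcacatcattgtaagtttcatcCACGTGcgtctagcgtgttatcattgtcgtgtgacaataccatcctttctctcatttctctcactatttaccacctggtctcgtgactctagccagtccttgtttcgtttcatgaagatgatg
mdl-1 summit 4 of 4, downstream, chrX:6743977-6744137, plus strand: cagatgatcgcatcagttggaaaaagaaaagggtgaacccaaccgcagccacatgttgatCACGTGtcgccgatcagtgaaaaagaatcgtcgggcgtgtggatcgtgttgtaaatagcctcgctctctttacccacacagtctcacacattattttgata
xbp-1 summit 4 of 4, downstream, chrIII:4195433-4195593, plus strand: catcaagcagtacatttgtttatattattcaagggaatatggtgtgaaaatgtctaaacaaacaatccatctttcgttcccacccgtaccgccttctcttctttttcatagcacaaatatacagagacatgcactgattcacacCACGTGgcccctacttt
hsp-90 summit 5 of 8, coding exon, chrV:14687323-14687483, plus strand: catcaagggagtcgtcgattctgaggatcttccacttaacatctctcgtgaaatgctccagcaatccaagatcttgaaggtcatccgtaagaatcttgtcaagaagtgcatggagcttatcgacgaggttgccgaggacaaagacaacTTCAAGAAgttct
In windows of that length, CACGTG lay at 89 of 1207 clustered summits (7.37%, interval 5.96 to 8.996%), 103 of 1845 single summits (5.58%, 4.58 to 6.73%) and 6.29% of all optimal summits. TTCNNGAA lay at 10.7% of clustered and 8.78% of single summits, with 9.53% over all. In 300 base windows CACGTG lay at 11.4% (9.62 to 13.3%) and 8.51% (7.28 to 9.88%). The clustered share of CACGTG was the higher at both window lengths with overlapping intervals, and a match is a stretch of letters, not a measured binding site. In 90 of 776 neighbour pairs the clustered summits lay under 300 bp apart. Their 300 base windows overlap, so 1 match of any motif can count at both, which single summits do not allow. AATAAA lay at 193 of 1207 clustered (16.0%, 13.97 to 18.2%) and 369 of 1845 single summits (20%, 18.2 to 21.9%) in 161 base windows, with 18.4% over all. In 300 base windows it lay at 38.8% (36.01 to 41.6%) and 41.6% (39.3 to 43.9%), with 40.5% over all, so its intervals were apart in the shorter window and overlapped in the longer one. Windows of 161 bases that were mostly masked as repeats or low complexity in the RefSeq copy made up 3.73% of clustered (2.73 to 4.96%) and 6.67% of single summits (5.57 to 7.90%). Mean GC content in 300 base windows was 41.6% ± 5.78 (SD over 1207 windows) at clustered and 41.3% ± 5.67 (SD over 1845 windows) at single summits, a difference far smaller than the spread between windows.

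The replicates did not carry the clustering equally. When the strongest 3052 regions of each replicate's own list were chained in the same way, replicate 1 gave 1391 clustered summits (45.6%) and replicate 2 gave 951 (31.2%). Replicate 1 held 206 clusters of 3 or more summits, replicate 2 held 97 and the pooled optimal list held 159. The largest cluster had 13 summits in the replicate 1 and pooled lists and 8 in the replicate 2 list. Of the 1207 clustered optimal summits, 98.8% had a region of the full replicate 1 list within 200 bp and 88.1% had one in the replicate 2 list, against 99.4% and 95.8% of the single summits. Among the strongest 3052 regions of replicate 1 were 88.0% of the clustered summits (86.0 to 89.8%) and 75.4% of the single ones (73.4 to 77.3%). For replicate 2 these shares were 56.8% (54.0 to 59.7%) and 58.4% (56.1 to 60.6%). By this cut the clustered share was the higher in replicate 1, and in replicate 2 the intervals overlapped. Among summits with a region in the full list, the median rank in replicate 1 was 1048.5 for clustered and 1874.5 for single ones. In replicate 2 the medians were 1758 and 2056.5, so clustered summits with a region ranked higher there too, by less. The pooled list was made from the reads of both replicates, so a match in either is no independent check, and replicate values stand beside the pooled ones for the main counts and the genes described in full. The depth of the libraries is unknown, and its part in the difference between the replicates was not tested.

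**Figure D1:**
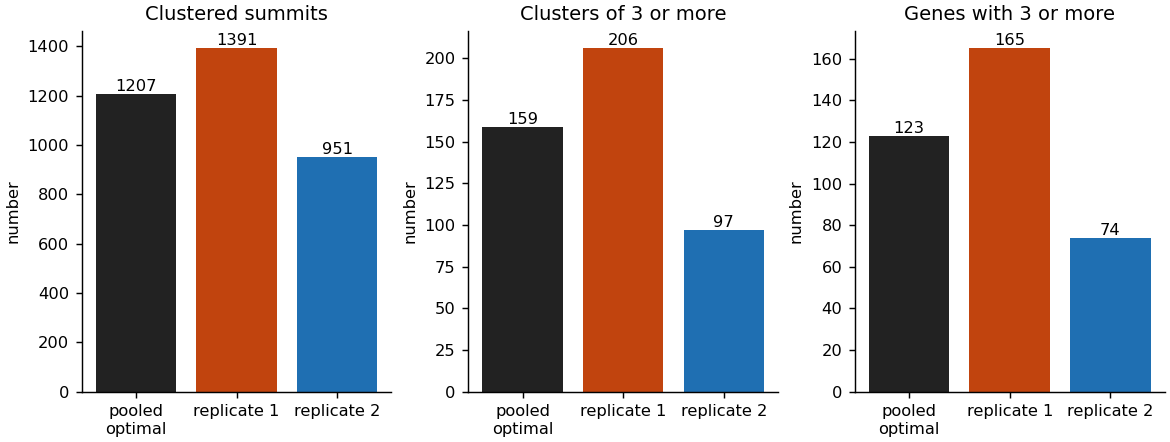
Numbers of clustered summits, of clusters with 3 or more summits and of protein-coding genes with 3 or more summits of 1 cluster (y axes, counts) in the pooled optimal list and in the 3052 strongest regions of each replicate (x axes). Replicate 1 gave the highest bar in each panel, with 1391, 206 and 165, and replicate 2 the lowest, with 951, 97 and 74.

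Most clusters were pairs. Of 431 clusters, 272 held 2 summits, 77 held 3, 39 held 4, 20 held 5 and 23 held more, up to 13. The 159 clusters of 3 or more summits held 663 of the 1207 members. The distance between neighbours had a median of 631 bp and ran from 199 to 999 bp. It fell under 300 bp in 90 of 776 neighbour pairs, between 300 and 399 bp in only 17, and between 400 and 699 bp in 391. A smallest distance of 199 bp was found in the optimal list, the pooled list and both replicate lists, so the pairs close to 200 bp sat at the shortest spacing the deposited lists contain. Clusters spanned a median of 835 bp and at most 6712 bp. Most member peaks, 1098 of 1207, were 320 bp wide, and 16 members shared 4 wider called regions, of which the widest, 3409 bp along icl-1, held 8 summits.

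**Figure D2:**
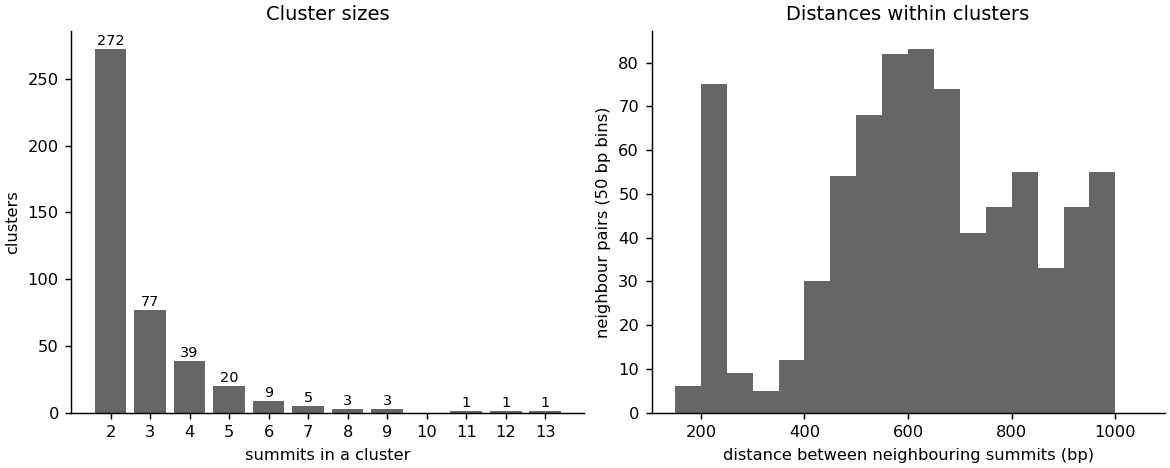
Left, number of clusters (y axis) by the number of summits they hold (x axis), with the count above each bar. Right, number of neighbouring summit pairs within clusters (y axis, bins of 50 bp) by their distance in bp (x axis), with a narrow group near 200 bp, few pairs from 300 to 399 bp and a broad group centred near the median of 631 bp.

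Each peak's signal was set by the authors on an unstated scale, so signals are compared only within a list. In the pooled list the median signal was 88.5 for clustered and 75.0 for single summits. Among the 305 strongest optimal peaks, 201 were clustered and 104 were single, although the highest value of all, 1168, belonged to a single summit. The clustered share of the optimal summits was 45.0% on chromosome V (40.7 to 49.3%), 42.1% on II (37.9 to 46.3%), 39.5% on III (35.5 to 43.6%), 39.1% on X (34.5 to 43.9%), 37.6% on I (33.3 to 42.0%) and 32.8% on IV (28.5 to 37.3%). The intervals of V and II lay above that of IV, and those of all other pairs of chromosomes overlapped. The 1000 bp limit cut through genes. Just inside it were pairs 999 bp apart at gei-4, with signals of 103 and 63.6, at R02F2.1, with 73.0 and 75.4, and at lpin-1, with 98.8 and 97.7. Just outside were pairs at F32D8.12 (1001 bp), at egl-9 and at tatn-1 (both 1002 bp), and a pair 1003 bp apart at ikke-1 and R107.5, with signals of 59.1 and 403.

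Clustered summits lay inside genes, away from both ends, more often than single ones. An exon more than 500 bp from any annotated protein-coding gene end held 18.5% of clustered summits (16.3 to 20.8%) and 8.24% of single ones (7.02 to 9.59%). Within 500 bp of any 5′ or 3′ end lay 48.3% of clustered (45.4 to 51.2%) and 61.8% of single summits (59.6 to 64.1%). The shares at a 3′ end alone were alike, 19.6% (17.4 to 22.0%) against 19.7% (17.9 to 21.6%). At a 5′ end alone they were 18.6% (16.4 to 20.9%) and 23.6% (21.7 to 25.6%), and within reach of a 5′ and a 3′ end at once 10.1% (8.46 to 11.9%) and 18.5% (16.8 to 20.4%). For the exon class, the 5′ class and the class near both kinds of end the intervals were apart. Introns held 17.8% and 15.6% and intergenic sequence 15.4% and 14.3%, with overlapping intervals. Summits of 1 cluster are not independent of each other, so these intervals, which cover counting error only, are narrower than they should be.

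**Figure D3:**
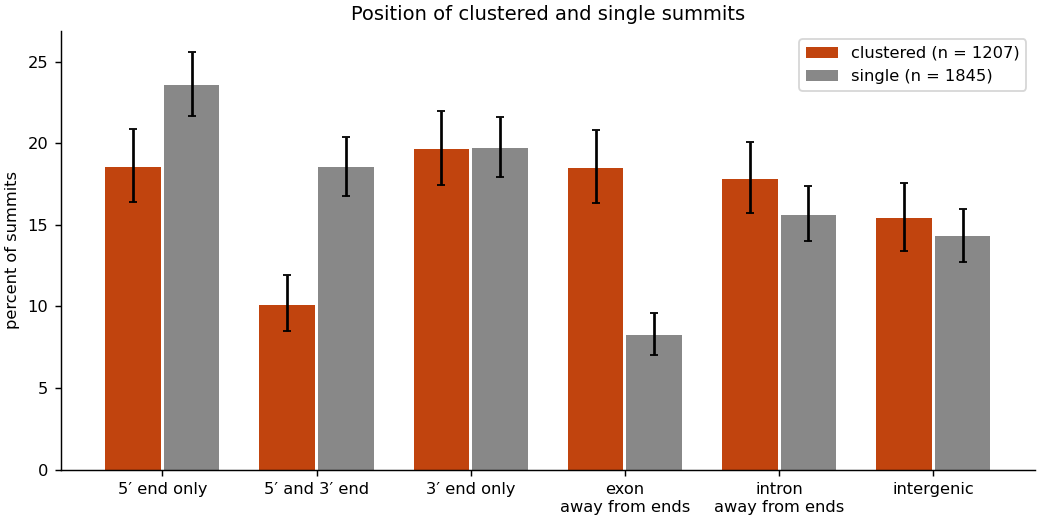
Percent of summits (y axis) in 6 classes of position relative to protein-coding genes (x axis) for 1207 clustered and 1845 single summits, with 95% exact binomial intervals as error bars. Clustered summits were more frequent in exons away from gene ends, 18.5% against 8.24%, and less frequent near 5′ ends.

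A gene was taken to carry several summits when at least 2 summits of the same cluster lay between 500 bp before its 5′ end and 500 bp past its 3′ end. This held for 381 of 19973 protein-coding genes (1.91% of them), and 123 genes (0.616%) carried 3 or more. Of the 381 genes, 258 had 2 summits, 63 had 3, 26 had 4 and 34 had 5 or more. Together they took in 894 of the 1207 clustered summits (74.1%) and 319 of the 431 clusters. Because neighbouring genes can share summits, the 381 genes stood for 351 different sets of summits. Their median length was 2657 bp, against 2390 bp for the 2178 genes with any optimal summit and 2027 bp for all protein-coding genes. The same rule called 418 genes (2.09%) in the strongest regions of replicate 1 and 358 (1.79%) in those of replicate 2. Of the 381 genes, 148 were called in both replicates, 161 in replicate 1 alone, 39 in replicate 2 alone and 33 in neither. Replicate 1 thus called 81.1% of these genes and replicate 2 called 49.1%.

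In the 123 genes with 3 or more summits of a cluster, that cluster alone reached within 500 bp of both gene ends in 56 (45.5%, 36.5 to 54.8%), and these genes had a median length of 1388 bp. The cluster lay near the 5′ end only in 27 genes, near the 3′ end only in 22 and near neither end in 18, which had a median length of 9064 bp. Of the 123 genes, 50 had further optimal summits outside that cluster, and 20 had summits of more than 1 cluster. With every optimal summit counted, 83 genes had summits near both ends (67.5%, 58.4 to 75.6%), 16 near the 5′ end only, 16 near the 3′ end only and 8 near neither. The summits taken by these genes were 477 different ones, and a summit shared by neighbouring genes was placed once for each, which gave 503 placements. Of these, 220 were in coding exons (43.7%), 118 in introns, 72 downstream, 45 upstream, 28 in 3′ untranslated and 20 in 5′ untranslated exons. The last summit of the cluster lay past the annotated 3′ end in 67 of the 123 genes, by a median of 178 bp.

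The strongest summit was often the last one in the pooled list. It was the last in 55 of the 123 genes (44.7%, 35.7 to 53.9%), the first in 37 and one between in 31. Neighbouring genes can share summits, and the intervals here treat such genes as separate. At cdk-5 and kel-3, which shared 3 summits in opposite directions, the strongest was the last of cdk-5 and the first of kel-3. When each replicate's own list was chained, the last was strongest in 74 of 165 genes in replicate 1 (44.8%, 37.1 to 52.8%) and in 27 of 74 genes in replicate 2 (36.5%, 25.6 to 48.5%). Some close summits match the same region of a replicate, so the order was also read in the 53 genes whose summits each had a region of their own in both replicate lists. There the last was strongest in 22 in replicate 1 and 14 in replicate 2, and the first in 15 and 22. In these 53 genes the last summit was thus more often the strongest in replicate 1, and the first in replicate 2. Both replicates had the same strongest summit in 150 of the 265 several-summit genes that were matched at every summit in both (56.6%, 50.4 to 62.7%). Of these genes, 239 had a separate region for each summit in both lists. With 2 summits, which leave only 2 choices, the strongest was the same in 121 of 198 genes (61.1%, 53.9 to 67.9%). With 3 or more it was the same in 29 of 67 (43.3%, 31.2 to 56.0%).

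The protein kinase gene mnk-1, which encodes a MAPK-interacting kinase, carried the most summits, 12 in a row on chromosome II. In this gene of 12624 bp the chain ran from 6175 bp after the annotated 5′ end to 264 bp past the 3′ end, and 6 further summits of a pair of other clusters lay before it, the first of them 85 bp after the 5′ end. The highest pooled signal, 342, was that of the first summit, in an annotated 5′ untranslated exon, where replicate 1 had 265 and replicate 2 had 73.2. The last summit, downstream, followed with 255 pooled, 177 in replicate 1 and 80.6 in replicate 2. The 10 summits between them had pooled signals from 71.6 to 207. The outer summits of the chain were thus the strongest pair in the pooled list. In replicate 2 they were so too, in reverse order, and 2 inner summits had no replicate 2 region. Along mak-1 the pooled signals were 193, 225, 134, 272, 121, 174 and 426 from upstream of the gene to 189 bp past its end. Replicate 1 gave 136, 187, 106, 195, 139, 153 and 332, and replicate 2 gave 63.2, 45.9, 15.4, 74.5, none, 22.9 and 116. In each list the last summit was the highest, followed by the fourth, in a coding exon.

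Several of the 20 genes with the most summits encode metabolic enzymes, although most genes of the metabolic lists that carried several had 2 or 3. Over the 9 summits of icl-1 the pooled signals were 87.3, 173, 198, 98.8, 124, 176, 113, 244 and 417, the last one 147 bp past the 3′ end. Replicate 1 gave 75.0, 110, 207, 72.6, none, 128, 33.5, 166 and 298, and replicate 2 gave 19.7, 73.9, none, 63.7, none, 53.1, 95.9, 47.6 and 153. The downstream summit was the highest in each list, ranking 30 in replicate 1 and 29 in replicate 2, and the fifth summit had no region in either replicate. The gene acs-2 encodes an acyl-CoA synthetase of fatty acid oxidation, and its 6 summits were all among the 3052 strongest of both replicates. Its pooled signals were 229, 230, 131, 183, 128 and 171. Replicate 1 had 130, 219, 105, 115, 82.9 and 126, and replicate 2 had 97.3, 49.2, 67.1, 65.1, 85.9 and 75.9. Here the start was the stronger side in the pooled list, with the summit 416 bp upstream highest in replicate 2 and the one 170 bp into the gene highest in replicate 1. Pyruvate carboxylase (pyc-1) carried 6 summits with pooled signals from 65.9 to 155, all in coding exons, the second highest in the pooled list and replicate 1 and the last highest in replicate 2. The gluconeogenic enzyme gene pck-2 carried a cluster of 5 in the first 1875 bp of its 5965 bp, from 80.4 to 296, the fourth summit highest in the pooled list and replicate 1 and the first in replicate 2. The last 3 of these were also the summits of R11A5.6, and the fourth lay in a coding exon of R11A5.6. A second cluster of 4 summits reached past the 3′ end of pck-2, with a highest pooled signal of 257. The carbonic anhydrase gene cah-4 carried 7, from 62.7 to 216.

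**Figure D4:**
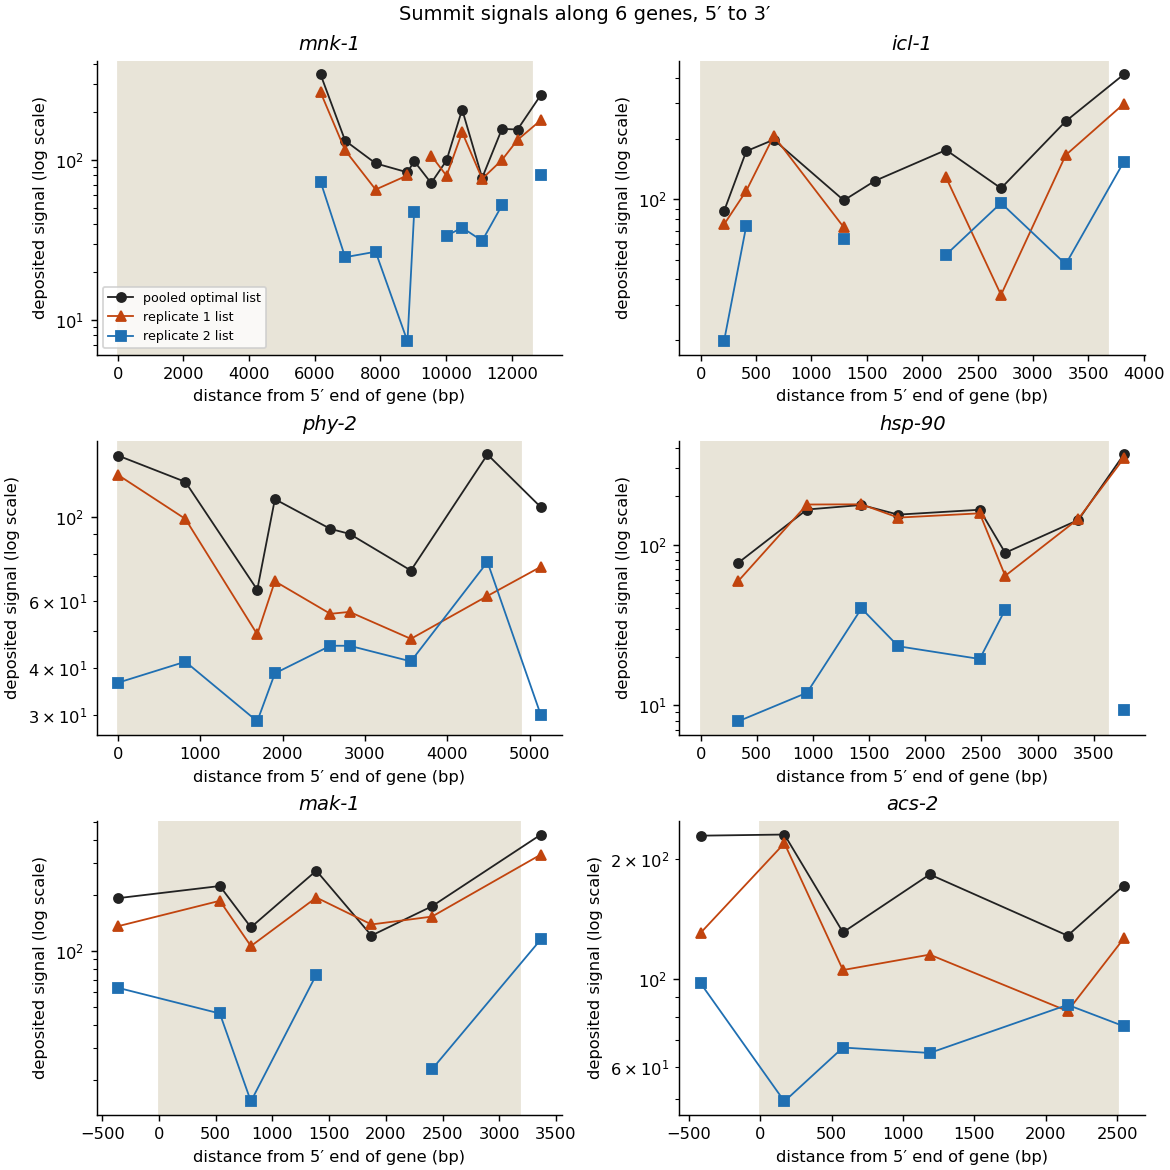
Deposited signal per summit (y axes, log scale) by distance from the annotated 5′ end in bp (x axes) along 6 genes, with the gene shaded and values from the pooled optimal list, replicate 1 and replicate 2; a summit without a replicate region within 200 bp has no point. At icl-1 and mak-1 the last summit is the highest in all lists, at hsp-90 it is the highest in the pooled list and replicate 1 with 364 and 345 and low in replicate 2 with 9.34.

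Of the gene lists, that of the chaperones had the largest number of several-summit genes. Of 73 heat shock and chaperone genes, 38 carried any optimal summit, against 2178 of all 19973 protein-coding genes. Several summits of 1 cluster were carried by 14 of the 73 (19.2%, 10.9 to 30.1%), against 1.91% of all protein-coding genes. The replicate 1 list gave 15 and the replicate 2 list gave 12. The 14 were hsp-90 with 8 summits, the Hsp70 gene hsp-1 with 7, the DnaJ gene dnj-20 with 6, hsp-110 with 5, and hsp-16.2, hsp-16.41, crt-1, hsp-70, hsp-3, hsp-6, dnj-9, cct-6, enpl-1 and cct-5 with 2 or 3. The pooled signals along hsp-90 were 76.9, 165, 176, 154, 165, 88.9, 142 and 364, with the last 141 bp past the 3′ end. In replicate 1 they were 59.2, 178, 178, 147, 157, 63.9, 145 and 345, and in replicate 2 they were 7.93, 11.9, 40.0, 23.3, 19.4, 39.4, none and 9.34. The downstream summit of hsp-90 thus ranked 23 in replicate 1 and 14468 in replicate 2, where the highest values lay in the gene body. At hsp-1 the last of 7 summits, 72 bp past the end, was highest in each list, with 416 pooled, 335 in replicate 1 and 86.8 in replicate 2. Its other pooled signals ran from 60.4 to 197, and its summits 5 and 6 shared 1 region of replicate 1. The pooled signals along dnj-20 ran from 60.8 to 171, with the third summit highest, as in replicate 1, and the fifth highest in replicate 2. At hsp-110 the summit 104 bp past the end had 422 pooled and 389 in replicate 1, while replicate 2 had 24.1 there and 29.2 at the first summit. The small heat shock genes hsp-16.2 and hsp-16.41 stand back to back and shared a pair of their 3 summits. Both have near-identical relatives, so their signals are uncertain. Their shared summits had pooled signals of 208 and 212, replicate 1 signals of 184 and 207, and replicate 2 signals of 43.9 and 24.5.

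Other genes of protein handling were among those with long chains. The BAG cochaperone gene unc-23 had 5 summits with pooled signals from 89.4 to 290, the highest past its 3′ end in the pooled list and both replicates. The polyubiquitin gene ubq-1 had 4, the last of them, 144 bp past the end, at 288 pooled, 196 in replicate 1 and 116 in replicate 2. The LC3-like autophagy gene lgg-2 had 6, from 65.6 to 157, and the last 3 of these were also the summits of its neighbour lsm-7. The highest of the 6 lay 319 bp past the 3′ end of lgg-2, in a coding exon of lsm-7. The autophagy receptor gene sqst-1, the worm p62, had 5, from 60.4 to 162. In replicate 2, sqst-1 had a region at 2 of its 5 summits, and neither lgg-2 nor sqst-1 was called there. The cathepsin L gene cpl-1 had 5 summits, the last at 204 pooled and 149 in replicate 1, and 44.9 in replicate 2, close to the 45.0 of its second summit.

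The collagen-modifying enzyme gene phy-2, a prolyl 4-hydroxylase, carried 9 summits that all ranked among the 3052 strongest of both replicates. Its pooled signals were 145, 124, 64.2, 111, 93.0, 90.2, 72.2, 146 and 106 from 8 bp after the 5′ end to 244 bp past the 3′ end. Replicate 1 had 129, 98.8, 49.0, 67.6, 55.5, 56.1, 47.6, 61.8 and 73.9, and replicate 2 had 36.5, 41.4, 28.8, 38.6, 45.7, 45.7, 41.5, 76.1 and 29.9. Along phy-2 the eighth summit was highest in the pooled list and replicate 2 and the first in replicate 1. Summits 5 and 6 shared 1 region of replicate 2.

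Other genes among the 20 with the most summits have roles in chromatin, RNA and transcription. Splicing factors had 1 of 63 genes (1.59%, 0.0402 to 8.53%), and RNA polymerase II and general factors had 3 of 73 (4.11%, 0.856 to 11.5%). Both intervals held the 1.91% of all protein-coding genes. Any optimal summit was carried by 21 and 17 genes of these lists. In nurf-1, which encodes a subunit of the NURF chromatin remodeller, 7 summits lay in the last 3518 bp and just beyond, with pooled signals from 85.4 to 387. The highest was in a coding exon, at 387 pooled and 371 in replicate 1, while replicate 2 had 17.1 there and its highest value, 27.2, at the next summit. The poly(A) polymerase gene tent-5 had 10 summits in the later part of its 11658 bp, from 59.2 to 167 pooled. Replicate 1 placed 9 of them among its strongest and replicate 2 placed 4. The nuclear hormone receptor gene nhr-17 had 7, from 64.9 to 316, of which 2 were among the strongest of replicate 2, and it was not called there. The last 3 summits of nhr-17 were also those of its neighbour nlp-76. The Mediator subunit gene mdt-26 had 3 summits, with 823, 762 and 72.5 pooled. Replicate 1 gave 542, 522 and 48.3 and replicate 2 gave 257, 246 and 15.8, so at mdt-26 the start region held both strong summits in each list. A further 5 of the 20 genes with the most summits are given without a role. Of these, W06H8.6 carried 6 summits of 1 cluster from 116 to 413, mstr-1 carried 6 from 108 to 220, T27D12.1 carried 6 from 59.3 to 181, R107.5 carried 5 from 101 to 403 and Y43F8B.2 carried 5 from 86.2 to 272.

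Among 29 gene lists, those of central metabolism and chaperones had the highest shares of several-summit genes. Each share is of all genes in a list, so it also depends on how many carried any summit. Of all protein-coding genes 2178 carried any, and 381 of these carried several. Any summit was carried by 12 glycolysis, 10 tricarboxylic and glyoxylate cycle, 23 oxidative phosphorylation and 7 one-carbon genes. For ubiquitin and SUMO, small GTPases and vesicle coats, and lipid metabolism the counts were 10, 22 and 21. Glycolysis had 5 of 18 genes (27.8%, 9.69 to 53.5%), namely gpd-2, gpd-3, aldo-2, enol-1 and tpi-1, with 4 in the replicate 1 list and 8 in the replicate 2 list. The near-identical glyceraldehyde phosphate dehydrogenase genes gpd-2 and gpd-3 are neighbours that shared 3 summits, so their values are uncertain and not separate. The tricarboxylic and glyoxylate cycle had 4 of 20 (20%, 5.73 to 43.7%), which were icl-1, cts-1, idh-1 and fum-1, with 4 and 6 in the replicate lists. Oxidative phosphorylation had 5 of 45 (11.1%, 3.71 to 24.1%), all with 2 summits each, and 2 and 5 in the replicate lists. One-carbon metabolism had 2 of 19 (10.5%, 1.30 to 33.1%), with 2 and 1 in the replicate lists. Ubiquitin and SUMO genes had 3 of 30 (10%, 2.11 to 26.5%), with 5 and 1 there. Small GTPases and vesicle coats had 6 of 69 (8.70%, 3.26 to 18.0%), with 5 and 3 in the replicate lists. Lipid metabolism had 5 of 108 (4.63%, 1.52 to 10.5%), with 8 in the replicate 1 list and 2 in that of replicate 2. These small counts moved with the settings: glycolysis fell to 0 among the 1526 strongest peaks and to 2 on the gene body alone, and the tricarboxylic and glyoxylate cycle fell to 1 in both, while the chaperones stayed between 8 and 19. Nuclear hormone receptors had 7 of 269 (2.60%, 1.05 to 5.29%), with 10 and 5 in the replicate lists. Their share was near the 1.91% of all genes, as were the cuticle collagens with 4 of 177 (2.26%, 0.619 to 5.68%), where replicate 1 called 5 and replicate 2 called 12. Among genes with any summit, 7 of 25 receptor genes and 4 of 31 collagen genes carried several, against 381 of 2178 over all.

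Of 81 ribosomal protein genes, 56 carried at least 1 optimal summit, and rpl-36 and rpl-39 carried several, with 2 in the replicate 1 list and 6 in that of replicate 2. Their share (2.47%, 0.300 to 8.64%) was near the 1.91% of all protein-coding genes. Among genes with any summit it was lower, with 2 of 56 ribosomal protein genes against 381 of 2178 protein-coding genes. The count of 2 rose to 9 with chaining at 2000 bp and fell to 0 at 500 bp or on the gene body alone. The median length of the ribosomal protein genes was 754 bp, against 2657 bp for the several-summit genes. All 6 elongation factor genes had a summit and none had several in the pooled list, while the replicate 1 list gave 0 and the replicate 2 list 2. None of 59 body wall muscle genes, 25 initiation factor genes or 19 basement membrane genes carried several, and 5, 1 and 3 of them had any summit. A limit of 3 counts for a count of 0 would allow shares of 5.08%, 12% and 15.8%, and the exact intervals reach 6.06%, 13.7% and 17.6%. All of these limits lie above the 1.91% of all protein-coding genes, so a count of 0 does not set these lists apart. Of 1309 chemoreceptor genes none carried several, with a limit of 0.229% by 3 counts and 0.281% by the exact interval, and 10 had any summit.

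**Figure D5:**
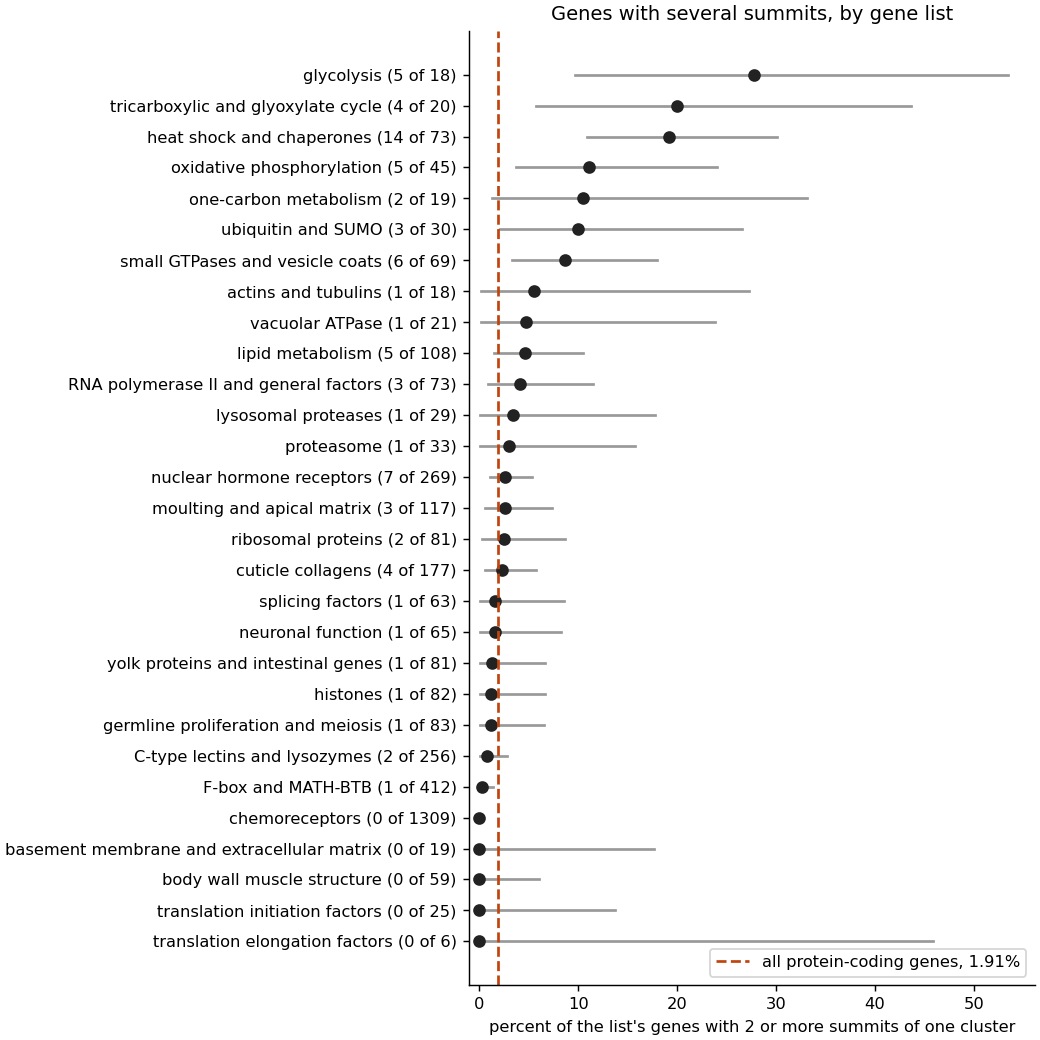
Percent of the genes of each of 29 lists that carry 2 or more optimal summits of 1 cluster (x axis), with 95% exact binomial intervals and the counts beside each list name (y axis). The dashed line marks the 1.91% of all protein-coding genes; glycolysis (27.8%), the tricarboxylic and glyoxylate cycle (20%), and heat shock and chaperone genes (19.2%) lie highest, and 5 lists lie at 0.

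Chains did not keep to single genes. Of the 431 clusters, 217 touched 1 protein-coding gene, 164 touched 2 or more and 50 touched none, counting the 500 bp on either side. The largest cluster, 13 summits over 6217 bp on chromosome I, touched mstr-1 and kin-14, which encodes a protein kinase. This cluster began in the 3′ untranslated exon of mstr-1 and ran on past the 5′ end of mstr-1. Of its 13 summits 5 lay within mstr-1 and 8 lay outside every annotated gene, including the highest, at 260 pooled, 187 in replicate 1 and 67.8 in replicate 2. The 9 summits of the hsp-1 cluster began at its neighbours lhfp-4 and clec-196, with pooled signals of 62.1 and 60.9. Only 1 of the summits around hsp-1 itself, at 60.4, was lower.

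Noncoding genes carried some of the strongest clusters. The highest summed signal of any cluster, 2436, belonged to 4 summits near the start of the noncoding RNA gene C30E1.9 on chromosome X, a cluster named after its values were seen. Their pooled signals were 765, 193, 780 and 698, with 594, 208, 708 and 551 in replicate 1 and 194, 12.9, 96.7 and 114 in replicate 2. Of the 4, 3 ranked within the first 72 of every list, and the second ranked 68 in replicate 1 and 8520 in replicate 2. A second cluster of 5 summits lay farther along C30E1.9, with pooled signals from 65.7 to 217. The noncoding gene W05H9.3 carried 4 summits, with pooled signals of 350, 161, 131 and 417, replicate 1 signals of 241, 165, 109 and 348, and replicate 2 signals of 132, 15.5, 12.7 and 94.1. Both ends of W05H9.3 were high and its middle low in each list. The long noncoding RNA gene tts-1 carried 3 summits, at 152, 575 and 72.3 pooled, 83.4, 245 and 84.7 in replicate 1, and 99.7, 377 and none in replicate 2. The middle one ranked 3 in replicate 2 and 52 in replicate 1, the reverse of the usual order of the replicates. The noncoding gene WBGene00014492 lies within mnk-1 and its 5 summits are among those of mnk-1, while W06H8.5 overlaps W06H8.6 and carried 4 summits of another cluster, from 72.8 to 102. The strongest clustered summit of all, 1035 pooled, 677 in replicate 1 and 366 in replicate 2, lay in the spliced leader gene sls-2.2 on chromosome II, 615 bp from a summit at sls-2.3 with 383, 248 and 136. Spliced leader genes make the short RNA that trans-splicing adds to worm transcripts. They occur in near-identical copies, so their signals are uncertain.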

How the data were processed

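The deposited peak lists held 1 signal value per peak, set by the authors on an unstated scale, and a −log10 q value that the authors deposited per peak and that was not tested. A further deposited column of another kind, the offset of the summit from the peak start, gave the summit positions. Per the deposited README texts, the pooled list came from both alignments and a control file, and the optimal list from the replicate and pooled lists. Depth is unknown, and aligner and peak caller were not given in the sources used here, so intervals cover counting error only.

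Summits within 1000 bp were chained (Python 3.11.15, exact intervals at 95% from scipy 1.17.1, tested on simulated clusters). Genes came from Ensembl release 115. Replicate regions were matched to the nearest summit within 200 bp. Named are the 20 protein-coding genes with the most summits, the leading clusters, 2 members per list and 5 noncoding genes; not all are printed, and others named (mdl-1, mml-1, xbp-1, unc-23, sqst-1 and the sls-2 genes) were chosen after their values were seen. Members and lists were chosen with earlier results of these data known, and the chemoreceptor and one-carbon lists were corrected after their values were seen. The alternatives are given in the closing section.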

Additional observations from a re-analysis of the deposited data

How the results depend on the processing

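Counts followed the chaining distance and the length of the list. Chaining at 500 bp gave 359 clustered summits, 168 clusters, 150 several-summit genes and 53.5% of clustered summits at a gene end. Chaining at 2000 bp gave 1861 clustered summits and 575 genes. The 1526 strongest optimal peaks gave 528 summits, 192 clusters and 173 genes, and the 6104 strongest pooled regions gave 2895, 1012 and 864. The gene body without flanks gave 196 genes. Windows of 250 and 1000 bp moved the share at a gene end to 30.1% and 64.7%. Matching within 100 or 500 bp moved the share of clustered summits with a region in both replicates to 73.0% or 96.8%, and matching each replicate region only once, chosen after seeing the data, to 83.8%. Leaving out either replicate gave 951 to 1391 clustered summits, 389 to 467 clusters, 358 to 418 genes, 47.6% to 52.9% at a gene end and 36.5% to 44.8% of genes with the last summit strongest. Over all these settings the gene lists with several summits ran from 8 to 19 genes for the chaperones, 0 to 8 for glycolysis, 1 to 9 for the tricarboxylic and glyoxylate cycle, 0 to 11 for oxidative phosphorylation and 0 to 9 for the ribosomal proteins. The cause of these shifts was not tested, beyond the longer or shorter reach that the distances set by construction. Unknown depth limits what the weaker summits can show.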
